A study of Mus musculus with 101 samples.

Results

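Male germ cell libraries with much or little RNA of Sertoli cell genes were compared to find which other transcripts follow that RNA. The libraries were chosen by their own readout. In each of the 53 male libraries, the mean of log2(normalized count + 0.5) over 4 genes known from Sertoli cells, Amh, Sox9, Cst9 and Clu, was taken as a score. The 17 males with the highest scores are called Sertoli-rich and the 17 with the lowest Sertoli-poor, so that 34 of the 101 libraries of the series were compared. The 19 males between them are called the middle libraries, and 48 female libraries gave the level without a testis.

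Each library came from the gonads of an E13.5 mouse embryo of the OG2 line, which carries EGFP under the Pou5f1 promoter and distal enhancer on a C57BL/6J background. Pregnant F0 dams were fed sesame oil, the vehicle, or benzo[a]pyrene (BaP) in it at daily doses of 0.033, 0.2 and 2 mg/kg. Feeding lasted from E6.5 to E11.5 where F1 embryos were taken and from E6.5 to E15.5 in the lineages that gave F2 and F3 embryos. Gonads were dissected with the mesonephros attached, sexed by their morphology and dissociated, and cells positive for EGFP were sorted as primordial germ cells after gates against debris, clumps and dead cells. The sort thus rests on a transgene active in germ cells, and it selected no other cell type by a marker. By the codes in their names, the 53 males came from 50 dams. They comprised 17 vehicle males, 9 at 0.033, 13 at 0.2 and 14 at 2 mg/kg-day. By generation, 21 were F1, 15 F2 and 17 F3.

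Sertoli cells are the supporting cells of the testis. They arise when SRY switches on Sox9 in the gonad of an XY embryo, and they then gather around the germ cells and enclose them in cords bounded by a basement membrane. Inside the cords they nurse the germ cells through direct contact, through KIT ligand and growth factors, and by breaking down retinoic acid, which keeps male germ cells out of meiosis.

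The recovered reads of 52 males ran from 5529311 to 87240533 per library, with a median of 7867283. Sertoli-rich libraries had 6037068 to 10439961 reads (median 7828828) and the 16 Sertoli-poor libraries with recovered reads 6534396 to 29556399 (median 8120590.5). In all, 6 males had 21247642 reads or more, and the largest of the others had 12211582. Of these 6 deep libraries, 3 were Sertoli-poor, 3 were middle and 0 were Sertoli-rich. Low normalized counts rest on few reads and are coarse.

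The score ran from 0.86 to 6.46 over the males, with a median of 4.63. At the border of the poor group, F3 male D1464.2 at 0.2 mg/kg-day had 4.19 and lay inside it, and F1 male C4258.5 at 2 mg/kg-day had 4.22 and lay outside. At the border of the rich group, F1 male D2506.3 at 0.2 mg/kg-day had 5.11 and lay inside, and F2 vehicle male C4992.2 had 5.08 and lay outside. The scores thus form a continuous range with no gap at either border. The 4 lowest males were F1 vehicle C3774.3 at 0.86, F3 D1390.5 at 0.2 mg/kg-day with 1.64, F2 D3371.2 at 0.2 mg/kg-day with 1.96 and F3 vehicle D3523.1 at 2.12. In females the score ran from -0.59 to 0.91, with a median of -0.11, so C3774.3 lay inside the female range.

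The 4 score genes are given as a description, since they defined the groups. Amh, whose product makes the Müllerian ducts regress, had normalized counts of 0, 0.453 and 1.89 in Sertoli-poor males (lowest, median and highest, the order used throughout) and 1.02, 2.37 and 12.3 in Sertoli-rich males. Sox9, the transcription factor that fixes Sertoli cell fate, had 0.246, 1.32 and 5.95 in poor and 3.46, 7.24 and 20.2 in rich males. For both genes the top of the poor group overlapped the bottom of the rich group. Cst9, a secreted cystatin, had 18.1, 144 and 612 in poor and 455, 648 and 1346 in rich males. Clu, a secreted chaperone, had 0.390, 56.9 and 112 in poor and 113, 260 and 633 in rich males, and it was the score gene whose groups did not overlap. Per kb of exon, the rich medians were 943 for Cst9, 144 for Clu, 1.75 for Sox9 and 1.42 for Amh, so Cst9 had by far the most RNA for its length and the classical markers Amh and Sox9 little.

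**Figure D1:**
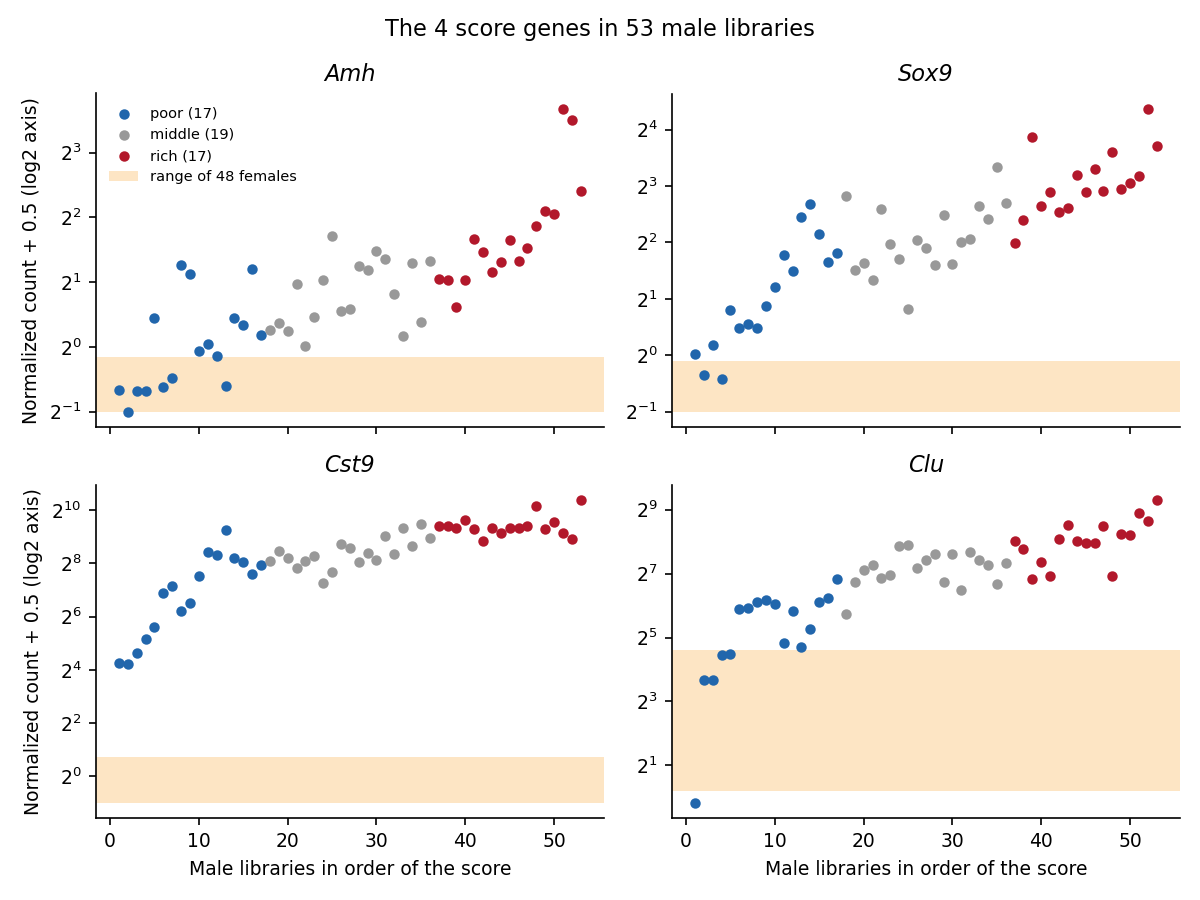
Normalized count + 0.5 (log2 axis) of the 4 score genes in the 53 male libraries, in order of the score; colours give the poor, middle and rich groups and the band the range of 48 females. Cst9 of every male lies above the female range, which ends at 1.17, while Amh of the poorest males lies within it.

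The female libraries show the level of the score genes without a testis. Amh, Sox9 and Cst9 were near their floor there, where Amh was at 0 in 39 of 48 libraries, Sox9 at 0 in 36 and Cst9 at 0 in 22, with highest values of 0.396, 0.432 and 1.17. Clu was less particular, with a female median of 4.02 and a highest female value of 23.9. Eif2s3y, a translation factor gene on the Y chromosome, had 109, 175 and 254 in Sertoli-poor males, 114, 182 and 380 in Sertoli-rich males and 0 in every female. The Sertoli-poor libraries therefore carried Y-linked RNA at a level that overlapped that of the rich ones.

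The score was compared with what the choice of libraries had not used. Generation held 2.22% of its variance (permutation test, p = 0.575, adjusted p = 0.765 over 7 relations). Median scores were 4.47 in F1, 4.89 in F2 and 4.62 in F3, and every generation gave libraries to both groups, with 6, 6 and 5 rich and 8, 4 and 5 poor males. Within generations, dose held 14.1% of the variance (permutation test, p = 0.0587, adjusted p = 0.411). The medians were 4.89 for vehicle, 5.23 at 0.033, 4.30 at 0.2 and 4.05 at 2 mg/kg-day. The 9 males at 0.033 mg/kg-day were all at 4.27 or higher, and 6 of them were Sertoli-rich and 0 Sertoli-poor. At 2 mg/kg-day, 8 of 14 males were Sertoli-poor and 3 Sertoli-rich, and at 0.2 mg/kg-day 6 of 13 were poor and 2 rich, against 3 poor and 6 rich among the 17 vehicle males. The doses were therefore unevenly spread over the groups. Without the deep libraries, dose held 25.2% of the variance (permutation test, p = 0.00603), and with a score of Amh, Sox9 and Cst9 alone 15.4% (permutation test, p = 0.0426). The mean score of exposed males differed from that of vehicle males by -0.25 (permutation test within generations, p = 0.507, adjusted p = 0.765).

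**Figure D2:**
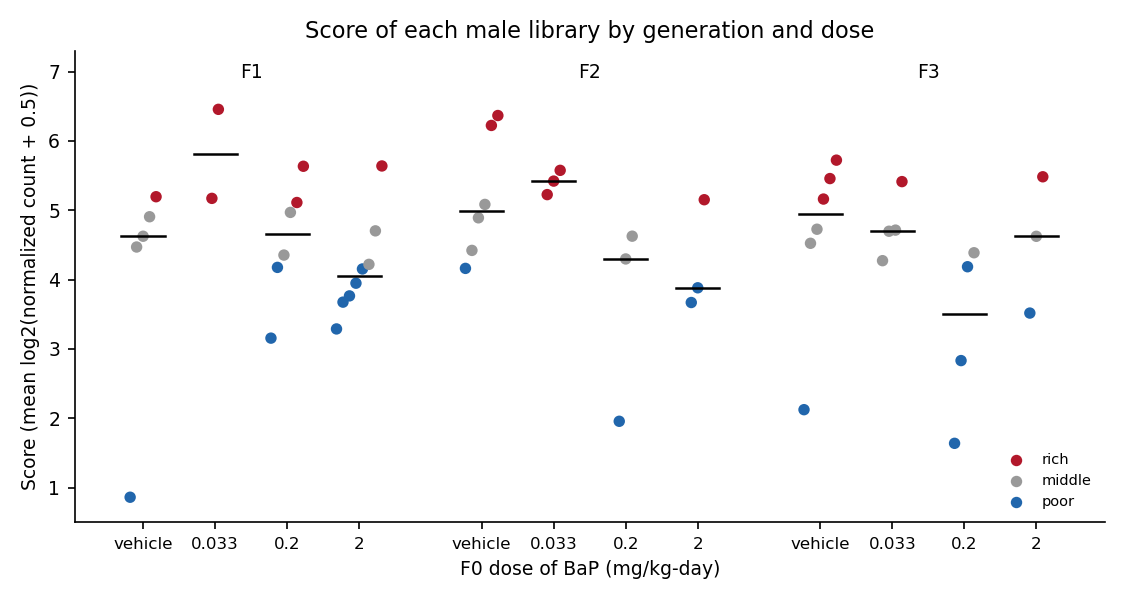
Score of each of the 53 male libraries by generation and F0 dose; points are libraries coloured by group and lines are medians. At 0.033 mg/kg-day no male lies below 4.27, and the lowest males are scattered over vehicle and 0.2 mg/kg-day.

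Depth formed separate clusters, so its relation to the score was taken within them. Over the 46 males under 20000000 reads, Pearson's r was 0.0454 (permutation test, p = 0.765, adjusted p = 0.765) and Spearman's rho 0.0468 (p = 0.756, adjusted p = 0.765), and r was 0.0546 without the 2 libraries farthest from their median depth. In those of F1, F2 and F3, r was -0.377, 0.131 and 0.250. Over the 6 deep libraries, r was 0.275 (exact permutation test, p = 0.431, adjusted p = 0.765) and rho 0.429 (p = 0.419, adjusted p = 0.765). Brothers from 1 dam did not always lie together. The males of dam D1390 had 4.39 and 1.64, those of D1190 4.18 and 3.16, and those of C4219 4.15 and 3.77.

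Many transcripts followed the 4 genes. Of 13097 other genes tested with limma, 1360 (10.4%) were higher and 932 (7.12%) lower in Sertoli-rich libraries at an adjusted p under 0.05. The higher genes moved further, with a median log2 difference of 0.72 against -0.44 for the lower genes and -0.00 for all genes. At least 2-fold differences were found in 390 higher and 18 lower genes, and at least 4-fold in 49 higher genes and 0 lower ones. The groups did not overlap in 31 higher genes (0.237%) and in 0 lower genes. The p-values say how firmly a gene followed the score, since libraries were not assigned to the groups, and in RNA of whole sorted samples fewer Sertoli cells and less RNA per Sertoli cell cannot be told apart. With generation and dose as terms, 844 genes were higher and 529 lower. Upper quartile scaling gave 1625 higher and 570 lower genes, and a minimum mean of 5 gave 613 higher and 803 lower. Leaving out F3 vehicle male D3402.3 raised the lower genes to 1476 and the higher ones to 1710, and without C3774.3 there were 1253 higher and 819 lower, without D1390.5 1211 and 791.

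The direction of most called genes was shared by the generations. Of the higher genes, 1293 (95.1%) had a higher mean in the rich group in each of F1, F2 and F3, which 21.9% of all genes tested had. Of the lower genes, 873 (93.7%) had a lower mean in each, against 21.8% of all genes. These are the same libraries that made the calls. A test of whether the difference depended on generation called 0 genes with limma at an adjusted p under 0.05. Of 13097 genes, 1306 had an unadjusted p under 0.05, which is more than that threshold alone would give. With 4 to 8 libraries per group in each generation, the lack of calls does not show that generations are alike.

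Genes known from Sertoli cells but outside the score moved with it. Of 21 such genes, 20 were measured, 19 passed the filter on low values, and these 19 were higher in Sertoli-rich libraries, with a median log2 difference of 1.84 beside -0.00 for all genes tested. Sox8 fell below the filter, with a highest value of 1.32, and a gene that passes only through the rich group had to differ, so the count is no test of the list. Beside the counts of this list and of all other lists and families stand the shares of all genes tested, 10.4% higher and 7.12% lower. The summed count of the list was 83.5, 285 and 457 in poor males, 754, 1071 and 2394 in rich males and 79.8, 130 and 233 in females, so the rich and poor sums did not overlap while poor and female sums did.

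Ptgds, the prostaglandin D synthase whose product reinforces Sox9 expression, had 1.49, 32.1 and 77.6 in poor and 67.5, 195 and 416 in rich males, a log2 difference of 2.93 (SE 0.34, limma adjusted p = 3.41e-08). The groups overlapped slightly, and the highest female value was 1.37. Defb19, a beta-defensin of the Sertoli cell, had 0.325, 25.6 and 66.8 in poor and 96.1, 158 and 421 in rich males (log2 difference 3.21, SE 0.38, adjusted p = 3.13e-08), with no overlap. The steroid enzymes followed as well. Hsd17b1, which reduces estrone to estradiol, had 0.252, 1.21 and 2.90 in poor and 2.93, 8.78 and 24.6 in rich males (log2 difference 2.55, SE 0.20, adjusted p = 6.41e-12), the smallest p of all genes tested. Hsd17b3, which makes testosterone from androstenedione, had 0, 1.13 and 3.03 against 3.95, 5.31 and 13.3 (log2 difference 2.11, SE 0.20, adjusted p = 4.22e-10). Neither steroid enzyme overlapped between the groups, although the gap of Hsd17b1 was narrow, and females reached only 0.544 and 0.504.

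The most abundant member, the lysosomal protease gene Ctsl, had 21.4, 57.4 and 114 in poor and 113, 193 and 543 in rich males (log2 difference 2.12, SE 0.18, adjusted p = 6.74e-11), and its female median of 56.2 was close to the poor median. Serpine2, a secreted protease inhibitor, had a log2 difference of 1.61 (SE 0.22, adjusted p = 5.57e-07) and Aard of 1.82 (SE 0.25, adjusted p = 7.37e-07). Of the rest, Inha, the alpha chain of inhibin, differed by 2.43 on the log2 scale, Mro by 2.01, Dhh, the hedgehog ligand that acts on interstitial cells, by 1.81, Cldn11, the tight junction claudin of the cords, by 1.11 and Fshr, the receptor for follicle-stimulating hormone, by 1.05. The list thus spans secreted ligands, enzymes, junctions and receptors known from Sertoli cells. Some members are not confined to them, since Serpine2 and Aard had female medians of 36.9 and 20.1.

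Among transcription factors of the supporting lineage and the gonadal soma, listed together with the receptor gene Amhr2, 6 of 11 tested members were higher and none was lower with limma, with a median log2 difference of 0.95. Gata4, which opens the gonadal programme and helps to drive Amh, had 0.126, 1.33 and 2.65 in poor and 3.29, 7.15 and 18.5 in rich males (log2 difference 2.04, SE 0.22, adjusted p = 3.77e-09), without overlap. Wt1, needed to keep Sertoli cells in their fate, had 0.144, 1.66 and 5.27 against 4.24, 7.12 and 20.3 (log2 difference 1.95, SE 0.25, adjusted p = 1.44e-07). Cited2, which works with Wt1, had a log2 difference of 1.47 (SE 0.20, adjusted p = 5.76e-07), Nr5a1 (steroidogenic factor) of 1.54, Amhr2, the receptor for the Amh product, of 1.89 and Zfpm2, the partner of Gata4, of 0.95. Dmrt1, Six4, Cbx2 and Nr0b1 did not pass. Dmrt1 is made by germ cells as well as Sertoli cells, and its medians were 22.9 in poor and 19.4 in rich males (log2 difference -0.29, SE 0.11, adjusted p = 0.0526), with 21.2 as the female median. With DESeq2 Dmrt1 was lower.

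Signals from Sertoli cells to germ cells divided in the same way. Of 13 tested, 7 were higher (53.8%, against 10.4% of all genes) and none lower with limma, with a median of 0.97. Of the 7, 4 (Ptgds, Gdnf, Inhbb and Dhh) are also in the Sertoli list, and Dhh is listed here although it acts on interstitial cells. Kitl, the ligand of the KIT receptor on germ cells, had 0.252, 2.48 and 5.62 in poor and 2.40, 8.92 and 26.5 in rich males (log2 difference 1.82, SE 0.28, adjusted p = 6.03e-06). Cyp26b1, the retinoic acid hydroxylase that shields male germ cells from meiosis, differed by 1.09 (adjusted p = 0.00111), Fgf9, the growth factor that sustains Sox9, by 0.97 (adjusted p = 0.00254) and Gdnf by 1.12 (adjusted p = 0.00330). Nodal and Bmp4 did not pass. Nodal, which male germ cells themselves make, had medians of 11.5 in poor and 11.9 in rich males (log2 difference 0.07, SE 0.16, adjusted p = 0.790), and Bmp4 10.3 and 14.4 (log2 difference 0.56, SE 0.25, adjusted p = 0.105).

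**Figure D3:**
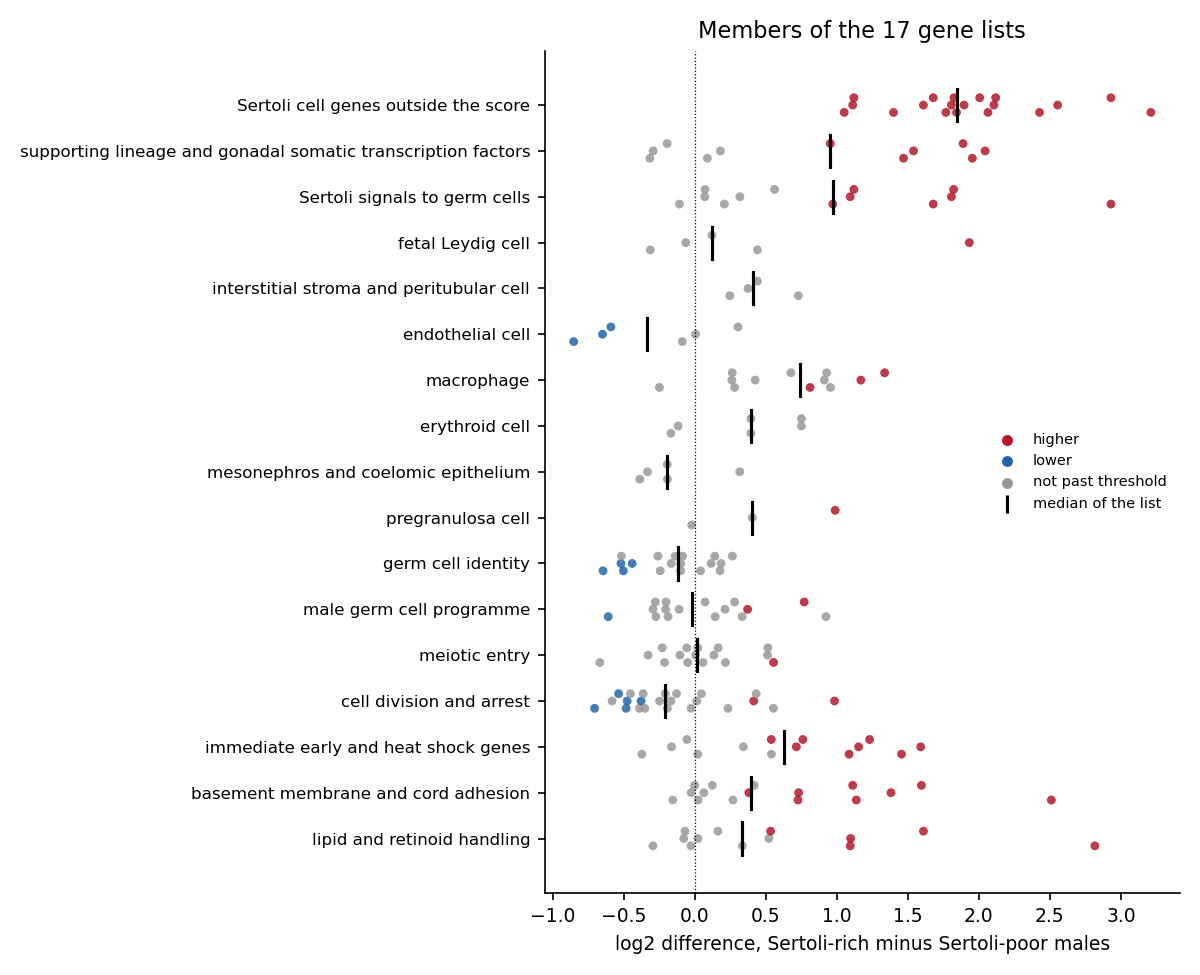
log2 difference, Sertoli-rich minus Sertoli-poor males, of each tested member of the 17 gene lists; colour gives the call at an adjusted p under 0.05 and bars are list medians. The Sertoli list has a median of 1.84 with all points above 0, whereas germ cell identity has a median of -0.12 with points on both sides.

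Genes of the cord wall were mixed. Of 16 basement membrane and adhesion genes, 8 were higher and none lower, with a median of 0.40. Gja1, the gap junction protein that couples Sertoli cells, had 0.123, 3.43 and 11.4 in poor and 11.6, 17.2 and 35.5 in rich males (log2 difference 2.51, SE 0.31, adjusted p = 1.21e-07), and these groups did not overlap. Of the others, the collagen gene Col4a1 was higher (adjusted p = 7.24e-07), and the laminin receptor subunit Itga6 differed by 1.14 (SE 0.16, adjusted p = 9.91e-07). Fibronectin Fn1, the most abundant member, and the integrin Itgb1 did not pass, with log2 differences of 0.02 (SE 0.10) and 0.06 (SE 0.10). Among 13 genes of lipid and retinoid handling, 5 were higher and none lower (median 0.33). Aldh1a1, which makes retinoic acid from retinaldehyde, had 0.260, 7.44 and 14.9 in poor and 22.2, 42.3 and 98.7 in rich males (log2 difference 2.82, SE 0.32, adjusted p = 1.85e-08), again without overlap, and the fatty acid carrier Fabp3 differed by 1.10 (SE 0.13, adjusted p = 6.34e-08).

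Markers of other gonadal cells are given as a description, since each list had members below the filter. Of all genes tested, 10.4% were higher. In the fetal Leydig list, 1 of 5 tested members was higher, Hsd3b1, a steroid enzyme of Leydig cells, with 0, 0.983 and 3.71 in poor and 1.99, 4.50 and 11.6 in rich males (log2 difference 1.93, SE 0.27, adjusted p = 9.26e-07). Its defining partners Cyp17a1, Cyp11a1 and Lhcgr fell below the filter and were at 0 in 22, 17 and 19 of the 34 libraries. The sum of that list was 43.1, 55.3 and 68.8 in poor and 49.1, 63.3 and 74.4 in rich males, most of it Fdx1. Of 16 genes of stroma and peritubular cells, 11 fell below the filter and none of the 4 tested passed, the smallest adjusted p being 0.0579 for Dcn. All 4 lay above 0, with a median of 0.41, and 2 of them were higher with log2 depth as a term, without the deep libraries or with 13 against 13 males. No mesonephros or coelomic epithelium gene among 5 tested passed (smallest adjusted p = 0.241, Wfdc2), nor any erythroid gene among 6 with limma or DESeq2. Hba-a1 and Hba-a2, which share reads, ran from 0 to 482 in poor and from 0 to 479 in rich males. Hbb-b1 and Hbb-b2, which also share reads, had a median of 0 in both groups and highest values of 0.219 in poor and 84.4 in rich males, and these were the 2 higher with edgeR. The pregranulosa list had 3 tested members and 1 higher, Lgr5, with a rich median of 1.23. Lgr5 passed the filter only through the rich group (mean 1.23, against 0.300 in poor males), so its call is no test.

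Macrophage genes leaned upwards, and some endothelial genes were lower. Of 12 macrophage genes tested, 3 were higher (C1qb, Lyz2 and Aif1) and none lower, with a median of 0.74. Their sum was 2.14, 14.0 and 82.4 in poor and 2.41, 30.8 and 130 in rich males, and 35.2 in the median female, so the groups overlapped over most of their range. None of the 3 passed with edgeR or DESeq2 on recovered reads, or with generation and dose as terms, whereas 8 of the 12 were higher with the score as a numeric term or a score without Clu, and 7 with a score without Cst9 or without Sox9. Among 6 endothelial genes, Pecam1, Plvap and Tek were lower and none was higher (median -0.34). Egfl7, Cldn5 and Flt1 did not pass, with log2 differences of -0.09, 0.01 and 0.30, and 4 members fell below the filter. Pecam1, an adhesion molecule of vessels that germ cells can also carry, had 20.3, 29.8 and 52.6 in poor and 14.2, 22.2 and 29.4 in rich males (log2 difference -0.59, SE 0.12, adjusted p = 0.000486), and its female median was 30.8. The part of other cell types in the differences was not tested.

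Germ cell genes changed little beside the Sertoli genes. Of 18 germ cell identity genes, 4 were lower and none higher, with a median of -0.12. The summed count was 7727, 9393 and 12798 in poor and 6393, 9308 and 12989 in rich males, which overlap almost fully. Dppa5a, the most abundant, had medians of 3919 and 4345 (log2 difference 0.04, SE 0.13, adjusted p = 0.862), Dppa3 2325 and 2634 (0.14, SE 0.13, adjusted p = 0.468) and Dazl, an RNA-binding protein of all germ cells, 979 and 850 (-0.17, SE 0.12, adjusted p = 0.346). Those that were lower were Kit, the receptor for the Kitl product, with medians of 41.2 and 29.2 (-0.52, SE 0.15, adjusted p = 0.0122), Tfap2c with 13.1 and 8.90 (-0.65, SE 0.17, adjusted p = 0.00816), Sall4 with 93.7 and 68.7 (-0.50, SE 0.18, adjusted p = 0.0488) and Ddx4 with 449 and 284 (-0.44, SE 0.16, adjusted p = 0.0497). The last pair lay at the threshold, and the calls of Ddx4 and of Sall4 were each kept in 20 of 59 settings. Without male D1390.5, 2 genes of the list were lower.

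The male programme of germ cells showed no common shift. Of 16 genes, 2 were higher (12.5%, near the 10.4% of all genes), 1 was lower and the median was -0.02. Dnmt3a, a DNA methyltransferase, differed by 0.37 (SE 0.11, adjusted p = 0.0171) and Bnc2, a zinc finger gene, by 0.77 (SE 0.24, adjusted p = 0.0241). Tdgf1, the Nodal co-receptor, was the lower one (log2 difference -0.61, SE 0.21, adjusted p = 0.0375), but its difference was 0.19 in F2, and it did not pass with dam as a random block or generation as a term. With generation and dose as terms none of the 3 passed, and without male D1390.5 3 genes of the list were lower. Its partners Lefty1 and Lefty2 had log2 differences of 0.21 and -0.27 and did not pass, and neither did Lhx1 at 0.28. Nanos2 had the largest log2 difference of the list, 0.92, and did not pass either (limma adjusted p = 0.0855). Of 16 genes of meiotic entry, Sycp2 alone was called with limma, as higher (6.25% of the list, log2 difference 0.55, SE 0.19, adjusted p = 0.0408), and Stra8, the gatekeeper of meiosis, had a median of 1.14 in poor and 1.23 in rich males (adjusted p = 0.808) beside 397 in females. With edgeR or DESeq2, 2 members were higher and 1 lower, and the Sycp2 call was kept in 32 of 59 settings.

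Cell division and stress genes differed in part. Of 23 genes of cell division and arrest, 5 were lower and 2 higher, with a median of -0.21. Ccnb1, the mitotic cyclin, had medians of 1377 in poor and 912 in rich males (log2 difference -0.48, SE 0.12, adjusted p = 0.00318), and the groups overlapped. Ccne1, which starts DNA replication, had medians of 71.7 and 44.3 (-0.71, SE 0.16, adjusted p = 0.00215) and Ccna2 of 212 and 158 (-0.38, SE 0.08, adjusted p = 0.00137), and Aurkb and Bub1 were also lower. Ccnd2, a cyclin of the entry into the cycle, was higher, with medians of 5.42 and 12.7 (0.98, SE 0.16, adjusted p = 1.5e-05), as was the inhibitor Cdkn1c (0.42, adjusted p = 0.0496). The Cdkn1c call lay at the threshold. With generation, generation and dose, or dam as a random block, 1 member of the list was higher, and with DESeq2 or upper quartile scaling 2 were. Of 14 immediate early and heat shock genes, which respond to tissue dissociation among other stimuli, 8 were higher and none lower with limma, with a median of 0.63, and 8 higher and 1 lower with edgeR or DESeq2. Egr1 had medians of 0.897 in poor and 3.17 in rich males (log2 difference 1.59, SE 0.25, adjusted p = 1.14e-05) and the small heat shock protein gene Hspb1 medians of 9.62 and 23.3 (1.46, SE 0.20, adjusted p = 5.3e-07), while Dnajb1, the most abundant member, had medians of 165 and 159 (-0.06, SE 0.10, adjusted p = 0.751).

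**Figure D4:**
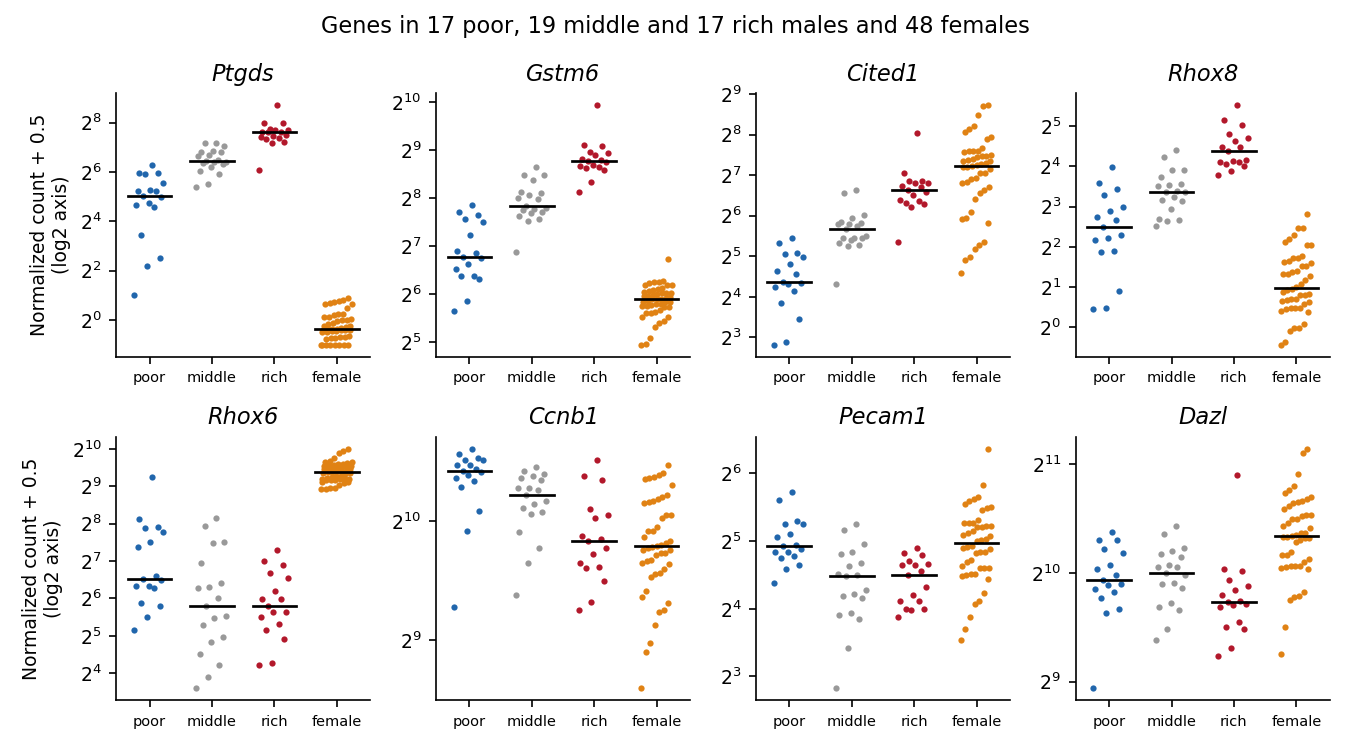
Normalized count + 0.5 (log2 axis) of 8 genes in 17 poor, 19 middle and 17 rich males and 48 females; points are libraries and bars are medians. Medians of Ptgds, Gstm6, Cited1 and Rhox8 climb from poor to rich males, and that of Ccnb1 falls.

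Beyond the lists, the genes with the smallest p were of several kinds, and some had no known function. Gstm6, a cytosolic glutathione transferase on chromosome 3 from 107938847 to 107943749, had 49.6, 110 and 232 in poor and 278, 437 and 977 in rich males (log2 difference 1.96, SE 0.17, adjusted p = 6.74e-11). Gstm2, of the same cluster, had 107, 305 and 725 against 757, 1163 and 2452 (1.90, SE 0.18, adjusted p = 6.04e-10). Neither overlapped between the groups, and both had female medians below the poor ones, at 58.8 and 138. Cpe, a carboxypeptidase that trims peptide hormones, had 0.757, 5.61 and 12.3 in poor and 14.4, 31.4 and 60.4 in rich males (2.46, SE 0.23, adjusted p = 4.22e-10), Kazald1, a secreted protein with a Kazal domain, a log2 difference of 2.80 (SE 0.29), Serpina3a, a serpin, of 2.73 (SE 0.24) and Etd, a gene of the early testis, of 2.82 (SE 0.29).

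Smpx, a small muscle protein gene on the X chromosome from 157698910 to 157752591, ran from 0 to 6.20 in poor and from 11.6 to 38.3 in rich males (log2 difference 2.85, SE 0.26, adjusted p = 1.3e-10). Hamp2, a hepcidin gene, had 0, 0.137 and 0.504 against 0.604, 2.03 and 5.11 (1.88, SE 0.16, adjusted p = 6.74e-11), which in the poor libraries is at most 5 reads. Hamp2 passed the filter only through the rich group (mean 2.08, against 0.163 in poor males), so it had to differ and its call is no test. Nr0b2, a nuclear receptor that lacks a DNA-binding domain, had medians of 0.431 and 3.98 (2.08, SE 0.19, adjusted p = 1.32e-10) and Mlst8, a subunit of the TOR kinase complexes, 10.9 and 26.7 (1.24, SE 0.12, adjusted p = 5.77e-10). For Smpx, Hamp2 and Nr0b2 every rich male lay above every poor one, and for Mlst8 the groups overlapped.

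Some genes of the higher set were higher still in females. Cited1, a transcriptional coregulator, had 6.56, 20.3 and 43.0 in poor and 40.7, 99.5 and 264 in rich males (log2 difference 2.25, SE 0.21, adjusted p = 2.81e-10), and 23.6, 150 and 421 in females. Among the 1360 higher genes, the female median lay below the poor male median in 661 (48.6%), close to the 52.2% of all genes tested. Being near that of all genes, this share is no result about the higher genes.

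The glutathione transferases were looked at as a family after their values had been seen, so no test was made of it. Of 23 such genes, 15 were higher and 0 lower with limma, and edgeR and DESeq2 each gave 15 and 0. The median log2 difference was 0.80, and no called member changed direction with upper quartile scaling. In F2 alone 7 were higher and 1 of the called members had the other sign, and in vehicle males alone 6 were higher. The microsomal Mgst1 had 1.04, 19.8 and 70.8 in poor and 82.7, 111 and 267 in rich males (2.75, SE 0.36, adjusted p = 3.58e-07), and Gsta2 1.13 against 6.49 as medians (2.30, SE 0.22, adjusted p = 5e-10). Gstp1, Gstp2, Gstk1, Gsto1, Gsto2, Gstt3, Gstz1 and Gstm3 did not pass. In the Gstm cluster on chromosome 3, 7 of 8 neighbouring genes were higher. They include 4933431E20Rik, which overlaps Gstm5 on the opposite strand, so that their counts cannot be told apart fully. The Gstm genes are alike in sequence and can share reads, so that single members are uncertain. The part of shared reads was not tested. Gstm3, which lies between Gstm6 and Gstm2, had medians of 356 in poor and 397 in rich males (0.25, SE 0.10, adjusted p = 0.0904). Gsr, which restores reduced glutathione, went the other way, with medians of 140 and 92.2 (-0.58, SE 0.10, adjusted p = 5.44e-05).

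The cystatins were named because they share the root of Cst9. Of 6 tested besides Cst9, 6 were higher with limma and 5 with edgeR or DESeq2. With generation and dose as terms 4 were higher, and in F2 alone 2, where 1 of the called members had the other sign. With a minimum mean of 5, 3 were tested and 3 higher, with a median log2 difference of 0.38 in place of 1.94. Cst12 and Cst13 had poor medians of 0.212 and 0.323, below the filter of 0.5. They may have passed it only through the rich group, in which case their calls are no test. In the neighbourhood of Cst9 on chromosome 2, taken after its values had been seen, 5 genes that precede it from 148768609 to 148830410 were higher. These were Cst11 with a log2 difference of 2.04, 8030411F24Rik with 2.75, Cst12 with 2.16, Cst8 with 2.70 and Cst13 with 1.84. Cst8 had 0.910, 11.2 and 136 in poor and 51.6, 90.3 and 202 in rich males (SE 0.41, adjusted p = 5.35e-06). On the far side lies Cst3, made by many cell types, with 372 and 506 as medians and a log2 difference of 0.38 (SE 0.13, adjusted p = 0.0353), which was -0.07 in vehicle males alone. The genes before the cluster, Nxt1, Gzf1 and Napb, had log2 differences of -0.05, -0.14 and -0.39 and did not pass.

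The Rhox homeobox genes of the X chromosome, also looked at after their values had been seen, were called in both directions. Rhox8, a Sertoli cell gene, had 0.860, 5.08 and 15.2 in poor and 13.2, 20.4 and 45.2 in rich males (log2 difference 2.06, SE 0.25, adjusted p = 9.05e-08). Of the 24 tested, it was the 1 higher gene with limma, and 15 were lower, mostly copies of Rhox2 and Rhox4 that share reads and cannot be counted as independent. Rhox6, a germ cell gene, had 35.3, 91.2 and 604 in poor and 18.3, 55.2 and 156 in rich males (-1.04, SE 0.31, adjusted p = 0.0172), and a female median of 671. Rhox4c (-1.30, SE 0.40, adjusted p = 0.0213) had the largest lower difference of all called genes. The lower Rhox calls were fragile. With log2 depth as a term, 5 were lower by limma. With the 13 highest against the 13 lowest males it was 0, and with a score without Clu 0, where 4 of the 15 had the other sign, while edgeR and DESeq2 on the main groups gave 16 lower and 2 higher.

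The genes most firmly lower in Sertoli-rich libraries differed by less than 2-fold, and whether they share a function was not tested. Pls1, an actin bundling plastin, had 25.1, 37.5 and 91.4 in poor and 11.8, 20.1 and 39.7 in rich males (log2 difference -0.95, SE 0.16, adjusted p = 2.63e-05). Uap1, which makes UDP-N-acetylglucosamine, had medians of 24.7 and 15.1 (-0.61, SE 0.10, adjusted p = 2.65e-05), Tpr, of the nuclear pore basket, 219 and 152 (-0.52, SE 0.09, adjusted p = 3.54e-05) and Eprs, a transfer RNA synthetase, 244 and 167 (-0.44, SE 0.08, adjusted p = 0.000102). In each of these the ranges overlapped. Smc3 of cohesin differed by -0.51 (SE 0.10), Ska3 of the kinetochore by -0.66 (SE 0.12) and Mcmbp, a partner of the replicative helicase, by -0.67 (SE 0.12). Also lower were Ppp2r1b (-0.75), Api5 (-0.64), Bid (-0.71) and Clic4 (-0.54). Fbxo22 (-0.57) and Nrg4 (-0.78) overlap on opposite strands of chromosome 9 and were counted without regard to strand, so that their values cannot be told apart fully. Nrsn1 (-1.23, SE 0.29) and Gm8909 (-1.23, SE 0.29) had larger differences at medians under 5.

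The 19 middle libraries, which took no part in the comparison, gave a second look over a narrower range of scores. Of 13052 genes tested there with limma, 5 (0.0383%) rose with the score at an adjusted p under 0.05, and 0 fell, while 791 rose and 729 fell at an unadjusted p under 0.05. The 5 were Anxa5, a phospholipid-binding annexin, Akr1b8, an aldo-keto reductase, Gstm7, Lpl, the lipoprotein lipase, and Bmyc, a relative of Myc. Each was also higher in Sertoli-rich libraries, with log2 differences of 2.39 for Anxa5, 2.28 for Akr1b8, 2.11 for Gstm7, 1.92 for Lpl and 1.25 for Bmyc. Anxa5 had a slope of 1.65 on the log2 scale per unit of score (adjusted p = 0.00915), and in the main comparison its highest poor value was 43.6 and its lowest rich value 50.2, so the groups did not overlap. With generation as a term, 11 genes rose.

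The slopes of the higher and lower genes in the middle libraries were counted by sign. Of 1330 higher genes tested there, 840 (63.2%) had a positive slope, against 50.7% of all genes. Of 922 lower genes, 346 (37.5%) had a negative slope, against 49.3% of all genes. Most of the lower genes thus did not fall with the score in the libraries outside the comparison. No lower gene had a slope past the threshold, and the difference between these shares was not tested. Ptgds (slope 1.54, adjusted p = 0.0634) and Gstm6 (1.27, adjusted p = 0.0801) had rising slopes that did not pass after adjustment. For Rhox6 the middle slope was 2.44 (adjusted p = 0.361), the reverse of its difference between the groups, and for Pls1 it was 0.71 (adjusted p = 0.488).

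The upstream sequences of the higher genes were searched for short motifs, as a description. The motifs, read on both strands, were AGATAA for GATA factors, AACAAT for SOX factors, AAGGTCA for steroidogenic factor, and TGACNNNGC, the core of the antioxidant response element. Of the 390 genes higher at least 2-fold, 270 matched the RefSeq promoter table with 330 promoters, of which the bases upstream of the start were read. AGATAA was found in 42 of these (12.7%), against 6.05% of the promoters of all genes tested, 4.84% of those of lower genes and 9.99% of the whole table. In the Sertoli genes outside the score it was in 1 of 15 promoters (6.67%). AACAAT was in 6.97% and 5.33% (higher genes and all tested), AAGGTCA in 3.64% and 2.90%, and TGACNNNGC in 10.9% and 11.8%. The shares were not corrected for base composition, and a match says nothing of binding.

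To show such promoters, the bases before the start of Smpx (chrX:157698723-157698972, plus strand), Hamp2 (chr7:30924182-30924431, minus strand), Aldh1a1 (chr19:20601718-20601967, plus strand) and Gja1 (chr10:56377050-56377299, plus strand) are given 5′ to 3′ from RefSeq on GRCm38.p6. They belong to 4 genes whose rich and poor groups did not overlap and that hold the GATA motif, chosen after their values were seen. The starts are those of RefSeq transcripts, and for Smpx, Hamp2 and Aldh1a1 the gene span in GENCODE reaches further upstream, so that their stretches lie partly or wholly inside it. Capitals mark AGATAA or its reverse TTATCT.
Smpx: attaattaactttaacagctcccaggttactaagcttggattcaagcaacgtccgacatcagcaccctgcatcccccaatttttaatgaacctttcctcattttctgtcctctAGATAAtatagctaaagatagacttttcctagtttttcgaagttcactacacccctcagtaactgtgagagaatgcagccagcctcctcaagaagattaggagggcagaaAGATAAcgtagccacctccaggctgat
Hamp2: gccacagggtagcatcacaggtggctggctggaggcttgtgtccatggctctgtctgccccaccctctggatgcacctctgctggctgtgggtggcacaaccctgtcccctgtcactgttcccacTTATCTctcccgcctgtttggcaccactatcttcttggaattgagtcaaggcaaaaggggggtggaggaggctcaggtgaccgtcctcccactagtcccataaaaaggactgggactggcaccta
Aldh1a1: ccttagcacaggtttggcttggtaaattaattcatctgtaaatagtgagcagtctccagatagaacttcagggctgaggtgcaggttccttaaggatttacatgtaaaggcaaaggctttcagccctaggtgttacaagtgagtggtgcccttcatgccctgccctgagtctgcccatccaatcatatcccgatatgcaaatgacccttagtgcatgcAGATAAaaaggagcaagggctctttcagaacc
Gja1: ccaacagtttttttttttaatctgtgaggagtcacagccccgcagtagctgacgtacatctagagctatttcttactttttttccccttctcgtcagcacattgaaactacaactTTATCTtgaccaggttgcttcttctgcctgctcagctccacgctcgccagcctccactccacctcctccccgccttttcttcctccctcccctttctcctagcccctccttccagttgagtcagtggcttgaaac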

How the data were processed

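The authors trimmed reads (Trim Galore), mapped them to GRCm38 (STAR), counted those on exons (Rsubread) and scaled the counts by TMM (edgeR), and the unit of the deposited table is recorded as signal. All 15423 genes of the table were read for 53 male and 48 female libraries, each matched to its sample by name. Reads were recovered from the step between values of a library. In 52 males 100% of the values were whole reads within 0.05. The step of D4190.1, an F3 male of the highest dose, lay too near a round value for reads to be recovered, and count-based tests left it out.

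The score genes and the rule for the 2 groups of 17 came with the task, and the members and gene lists were chosen with earlier results of these data known. Under R 4.3.3, limma 3.58.1 with a trended empirical Bayes prior was fitted to log2(normalized count + 0.5), for genes with a mean of at least 0.5 over the 34 libraries, without the 4 score genes. Adjustment followed Benjamini and Hochberg, with calls at 0.05. The middle libraries were fitted with the score as a numeric term. Scores were compared by two-sided permutation tests with 100000 resamples, within generations for dose and exposure, and exactly for the 6 deep libraries, with p-values adjusted over 7 relations. Dams were read from the codes in the sample names. Most dams gave 1 male, and libraries were treated as single units. F2 and F3 embryos of different dams can descend from the same F0 dam, which the names do not give.

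Named genes follow a rule. They are the score genes, from each list the 4 most abundant members, the 3 with the smallest p and those without overlap, outside the lists the 15 genes with the smallest p and the 5 with the largest difference in each direction, the 5 with the smallest p in each direction in the middle libraries, the cystatins, and the genes that the study names in its RNA-seq results. Other members of lists, families and clusters that appear were chosen after their values were seen. Gene positions and exon lengths came from GENCODE (basic set, GRCm38) and promoters from RefSeq (GRCm38.p6).

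The fit was repeated with pseudocounts of 0.1 and 1, with no filter or a minimum mean of 5, with edgeR 4.0.16 (quasi-likelihood and likelihood ratio tests) and DESeq2 1.42.0 on recovered reads, upper quartile scaling, generation, generation and dose, or log2 depth as terms, dam as a random block, 13 against 13 and 26 against 26 males, the score as a numeric term, a score without each gene, single generations, vehicle males, no deep libraries, and leaving out each library. The tests of the score were also made with brothers averaged. The limma fit was tested on simulated data. Python 3.11.15 with numpy 2.4.6, scipy 1.17.1, pandas 2.3.3 and matplotlib 3.10.9 did the rest.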

Additional observations from a re-analysis of the deposited data

Results flagged for a closer look

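The scores of 2 vehicle males lay far below the others of their group. In the F1 vehicle males, C3774.3 had a score of 0.86, the lowest of 5, and its gap to the next male took up 0.833 of the whole range of the group. In the F3 vehicle males, D3523.1 had 2.12, the lowest of 6, with a gap of 0.667 of the range. Both gaps were above the critical value of Dixon's test. Groups of 4 to 10 males were examined, 7 in all, and chance alone gives such a gap in about 1 of 20 groups. Both males are Sertoli-poor, and C3774.3 is a deep library with 23833292 reads. What set these males apart was not tested.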

How the results depend on the processing

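Of the 93 named genes with a call, 92 kept call and direction with either pseudocount, 90 with upper quartile scaling, 88 with each of the edgeR tests and DESeq2, and 80 with generation and dose as terms. With fewer libraries, 60 did so in F1, 45 in F2, 55 in F3 and 42 in vehicle males. The direction turned for Tdgf1 in F2 (0.19), Cstb in F2 (-0.0463) and Cst3 in vehicle males (-0.0677). The 1360 higher genes became 613 with a minimum mean of 5 (beside 803 lower, so that 43.3% of calls were higher in place of 59.3%), where fewer genes are tested, 844 with generation and dose as terms, 475 in F1, 296 in F2, 555 in F3 and 195 in vehicle males. The 932 lower genes became 570 with upper quartile scaling (beside 1625 higher, 74.0% of calls), 529 with generation and dose as terms, 354 with 26 against 26 males, 310 with a score without Cst9, 225 in F1, 5 in F2, 287 in F3 and 3 in vehicle males. Fewer libraries entered the fits by generation and in vehicle males, and for the other settings the cause was not tested. Leaving out each library gave 1131 to 1710 higher and 683 to 1476 lower genes, where the lower genes without D3402.3 (1476) moved by more than 1.5 times. The Sertoli genes called fell from 19 to 11 with a minimum mean of 5, where 11 were tested, and were 18 or 19 without each library. In the middle libraries 11 genes rose with generation as a term, in place of 5. The share of the score's variance between doses passed 0.05 unadjusted with a score without Clu (15.4%) and without the deep libraries (25.2%).

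Low values limit what can be seen: genes at a normalized count near 1 rest on few reads, and the poor and rich groups differ in dose.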
